A study of Neurospora crassa with 12 samples.

Results

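The isoforms described here are 1277 unannotated Neurospora crassa transcripts that lie within the ends of a single annotated gene and use at least 1 intron missing from that gene's annotation. They were chosen by their assembled structure, so a new intron in each of them is the rule and not a finding. An unannotated transcript had to share exon sequence on the same strand with exactly 1 annotated gene and pass neither end of that gene by 100 bp or more. None of its exons was allowed to hold a whole annotated intron, and at least 1 of its introns, taken as a start and an end, had to be absent from every annotated transcript of the gene. The members were 1277 of 10690 unannotated transcripts, or 11.9% (95% interval 11.3 to 12.6), in an assembly of 21475 transcripts. They came from 948 of 9730 annotated genes, which is 9.74% (9.16 to 10.3) of the genes.

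RNA-seq was performed on mycelia of 3 strains, WT, Δset-1 (Δkmt2), which lacks the histone H3 lysine 4 methyltransferase, and Δdim-5 (Δkmt1), which lacks the histone H3 lysine 9 methyltransferase. Both deletion strains were backcrossed to the WT strain. Each strain was harvested after 24 h of darkness (DD24) or after the same dark period followed by 30 min of light (LP30), with 2 replicates in each of the 6 groups. All 12 libraries were pooled by the authors in 1 merged set of transcript structures that carries no expression value, so neither strain nor light could be compared, the deleted genes could not be checked by library, and the read depth behind a transcript is unknown.

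In pre-mRNA splicing, the spliceosome cuts an intron at its 5′ end (the donor site) and its 3′ end (the acceptor site) and joins the flanking exons. Alternative use of a nearby donor or acceptor shifts an exon boundary, and removal of an intron from within an exon takes out sequence that other transcripts of the gene keep. Introns of filamentous fungi are mostly short, and a change of mRNA length by a multiple of the codon size leaves the downstream reading frame in register where the site lies in coding sequence. No coding sequence is marked in the assembly, so frame and UTR are not given below. Intervals beside shares are exact (Clopper-Pearson) 95% intervals and cover counting error only. Introns and genes are not replicates, so each test describes this annotation.

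The step from all isoforms to the members was as follows. An exon was shared with exactly 1 gene by 4940 unannotated transcripts, and 3149 of these met the rule on the gene's ends. Of the 3149, 1852 held a whole annotated intron in an exon and were left out. All but 20 of the 1297 that remained had a new intron, so that the 1277 members were 40.6% (38.8 to 42.3) of the isoforms within the ends. The 3 members closest to the end rule passed an end by 97, 97 and 98 bp, and the 3 closest transcripts beyond it passed an end by 100 bp each. In all, 937 transcripts met every other part of the rule but went past an end by 100 bp or more. No filter on expression was added here to the authors' assembly in choosing the members.

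Most members held only 1 new intron, which need not be their only difference from the gene's annotation. A single new intron was present in 1140 members (89.3%, 87.4 to 90.9), a pair in 122, and 3 in 13, while 1 member had 4 and 1 had 5. Of the 1277 members, 1059 (82.9%, 80.8 to 85.0) also used at least 1 annotated intron of the gene. They had a median of 4 exons (range 2 to 12). The exonic length of the members had a median of 2390 nt, against 2623 nt for the longest annotated transcript of each member's gene. The median difference was -130 nt, with quartiles of -308 and -45 nt. A shorter length is favoured by construction. The rule left out isoforms that keep a whole annotated intron or pass an end by 100 bp or more. The comparison was also with the gene's longest transcript.

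The ends of the members were limited by the rule, which left out transcripts that passed an end by 100 bp or more. Both outermost annotated ends were used by 346 members (27.1%, 24.7 to 29.6), the 5′ end by 525 and the 3′ end by 646. Members that went past an end, by less than 100 bp, numbered 143. Of all members, 237 started and 250 ended over 100 bp inside the gene, some of which passed the gene's other end.

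Over all members there were 1309 distinct new introns, and they fell into 6 kinds by how their ends related to annotated sites. The most frequent kind, with 580 introns (44.3%, 41.6 to 47.0), had both sites new and lay wholly inside 1 annotated exon. An annotated donor was joined to a new acceptor in 385 introns (29.4%, 27.0 to 32.0), and a new donor to an annotated acceptor in 228 (17.4%, 15.4 to 19.6). Both sites were new and the intron overlapped an annotated one in 69 (5.27%, 4.12 to 6.62). In 24 introns (1.83%, 1.18 to 2.72) both sites were annotated but had not been paired, and 22 of these covered a whole annotated exon. The last 23 introns lay elsewhere, for example across an exon's edge or a gene's end.

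**Figure D1:**
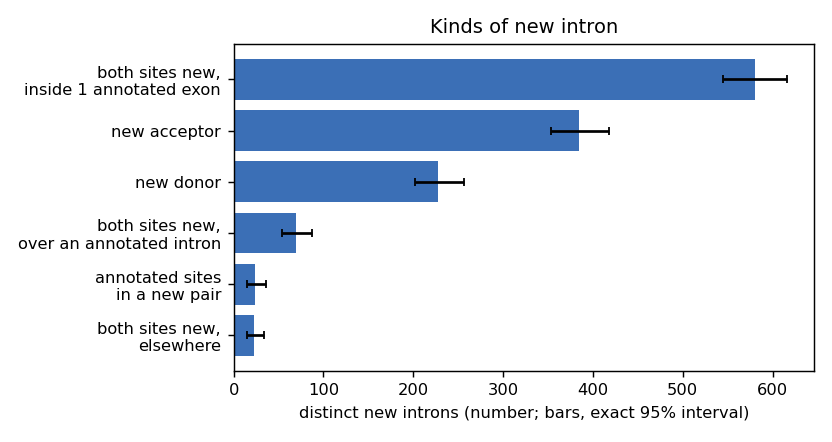
Number of distinct new introns of each kind (horizontal bars, with exact 95% intervals drawn on the counts), over all 12 pooled libraries. Introns inside 1 annotated exon (580) and new acceptors (385) were the most frequent kinds.

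Support from more than 1 assembled structure was limited. Of the 1309 new introns, 1213 (92.7%, 91.1 to 94.0) occurred in a single member and 96 in more than 1. Including same-strand unannotated transcripts outside the members, 180 introns (13.8%, 11.9 to 15.7) were found in at least 2 transcripts. Transcripts of 1 gene share their reads, and the number of libraries behind an intron is not recorded in the assembly.

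Where a single site was new, the site was more often an acceptor. Some introns share a new site, and each distinct site was counted once. Acceptors made up 383 of the 606 distinct new sites, or 63.2% (59.2 to 67.1). Shifts were measured to the nearest annotated site that shares the intron's other end. The median shift was 9 bp (quartiles 4 and 41.5 bp, range 1 to 877 bp) for acceptors and 42 bp (quartiles 14.5 and 158 bp, range 2 to 1471 bp) for donors. Shifts of up to 12 bp made up 60.1% (55.0 to 65.0) of the acceptors and 23.3% (17.9 to 29.4) of the donors.

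The most frequent acceptor shift was 3 bp, found at 66 of 383 sites (17.2%, 13.6 to 21.4). Shifts of 4 to 8 bp were found at 20 to 24 sites each, and shifts of 1 and 2 bp at 3 and 5 sites. The 3-bp shift made the intron longer at 43 of the 66 sites and shorter at the other 23. For donors the most frequent shift was 4 bp, at 34 of 223 sites (15.2%, 10.8 to 20.6), and no other shift from 1 to 30 bp was found at more than 6 sites. The 4-bp shift made the intron longer at 11 of the 34 sites. Alternative sites already present in the annotation had the same 2 distances: 31 of 197 neighbouring annotated acceptor pairs were 3 bp apart (15.7%, 10.9 to 21.6) and 25 of 210 donor pairs were 4 bp apart (11.9%, 7.85 to 17.1). These distances were singled out after the values were seen, and no test was made of them.

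**Figure D2:**
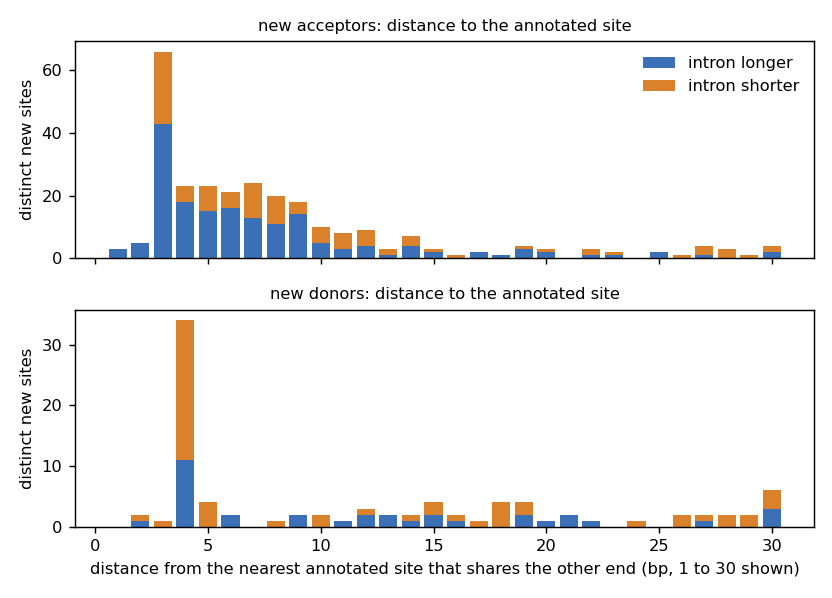
Number of distinct new acceptor sites (top) and donor sites (bottom) at each distance from 1 to 30 bp to the annotated site, divided by whether the new intron is longer (blue) or shorter (orange) than the annotated one. The acceptors peak at 3 bp (66 sites) and the donors at 4 bp (34 sites).

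The direction of the shift also differed in number between the ends. A new acceptor lengthened the intron at 217 of 383 sites (56.7%, 51.5 to 61.7) and a new donor at 88 of 223 (39.5%, 33.0 to 46.2). Lengthening an intron removes exonic sequence from the mRNA, and shortening it adds sequence. Shifts over 100 bp were found at 60 acceptors (15.7%) and 76 donors (34.1%).

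Whether shifts that are multiples of 3 bp were more frequent at acceptors than at donors was tested. The shift was divisible by 3 at 161 of 383 acceptors (42.0%, 37.0 to 47.2) and 74 of 223 donors (33.2%, 27.0 to 39.8), a difference of 8.85 percentage points with an odds ratio of 1.46. The difference did not pass the threshold of 0.05 after adjustment (2-sided Fisher's exact test, p = 0.0379, Benjamini-Hochberg adjusted over 2 tests p = 0.0758). In the same Fisher's exact test it passed with an end allowance of 50 bp (adjusted p = 0.0430) and when isoforms that keep an annotated intron inside an exon were included (0.0476). With only introns found in 2 or more unannotated transcripts the difference was 0.713 percentage points (Fisher's exact test, p = 1). Without the 3-bp shifts, a choice made after the values were seen that lowers the share by construction, 95 of 317 acceptor shifts (30.0%, 25.0 to 35.3) and 73 of 222 donor shifts (32.9%, 26.7 to 39.5) were divisible by 3.

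New introns were longer than annotated ones at the median. The new introns were 20 to 2753 bp long, with a median of 96 bp (quartiles 68 and 185 bp), and the 17854 annotated introns were 21 to 1884 bp long, with a median of 76 bp (quartiles 62 and 117 bp). By kind, the median was 82 bp inside an exon, 108 bp with a new acceptor, 128 bp with a new donor and 391 bp for newly paired annotated sites. These medians are a description, and no test was made of them.

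The length was divisible by 3 in 454 of 1309 new introns (34.7%, 32.1 to 37.3) and 6023 of 17854 annotated introns (33.7%, 33.04 to 34.4). The difference of 0.948 percentage points did not pass the threshold (2-sided Fisher's exact test, p = 0.486, also after adjustment over 2 tests). The odds ratio was 1.04. With only introns found in 2 or more unannotated transcripts the difference turned to -0.957 points and did not pass either.

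**Figure D3:**
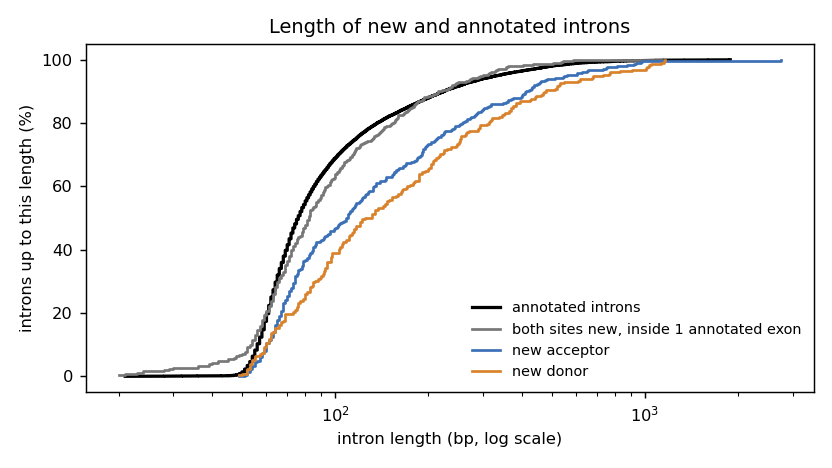
Cumulative share of introns (vertical axis, percent) up to each length (horizontal axis, bp, log scale) for annotated introns and the 3 most frequent kinds of new intron. The curves for new acceptors and new donors lie to the right of the annotated curve, with medians of 108 and 128 bp against 76 bp, and introns inside an exon include the shortest lengths.

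Both extremes of length held named genes. The longest new intron, 2753 bp, was in NCU16682 on chromosome III (3701170 to 3703922), where the acceptor lay 869 bp beyond the annotated one. The next was a 1449-bp intron of NCU02819 that joined annotated sites over a whole annotated exon. The longest intron inside a single annotated exon had 1134 bp and lay in the first exon of NCU09152. In all, 13 new introns (0.993%) and 42 annotated introns (0.235%) were over 1000 bp.

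At the short end, 33 new introns (2.52%, 1.74 to 3.52) and 64 annotated introns (0.358%, 0.276 to 0.458) were under 48 bp, a limit chosen after the lengths were seen. All 33 lay inside an annotated exon, and 19 of them had a length divisible by 3. The shortest, of 20 bp, were in NCU08333 and in pex26, a gene named for peroxisome biogenesis. HISAT2 accepts introns from 20 bp up at its default settings.

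Introns inside an exon were most often in the first exon. The exon and place were taken from the longest annotated transcript with that exon. Of the 580, 278 were in a first exon (47.9%, 43.8 to 52.1), 48 in an internal exon (8.28%, 6.16 to 10.8), 182 in a last exon (31.4%, 27.6 to 35.3) and 72 in the only exon of the transcript (12.4%, 9.84 to 15.4). First exons held 26.4% of the exonic sequence of the same genes, internal exons 19.0%, last exons 43.6% and only exons 11.0%. By place along the transcript, the first 20% held 276 of the 580 introns (47.6%, 43.5 to 51.7), and each later stretch of 20% held 54 to 94. The median distance from the transcript's 5′ end was 534 nt.

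The share with a length divisible by 3 differed in value with the exon. It was 28.4% (79 of 278, 23.2 to 34.1) in first exons, 58.3% (28 of 48, 43.2 to 72.4) in internal exons, 41.8% (76 of 182, 34.5 to 49.3) in last exons and 48.6% (35 of 72, 36.7 to 60.7) in only exons. Over all 580 it was 37.6% (33.6 to 41.7). The division by exon was made after the values were seen and was not tested.

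**Figure D4:**
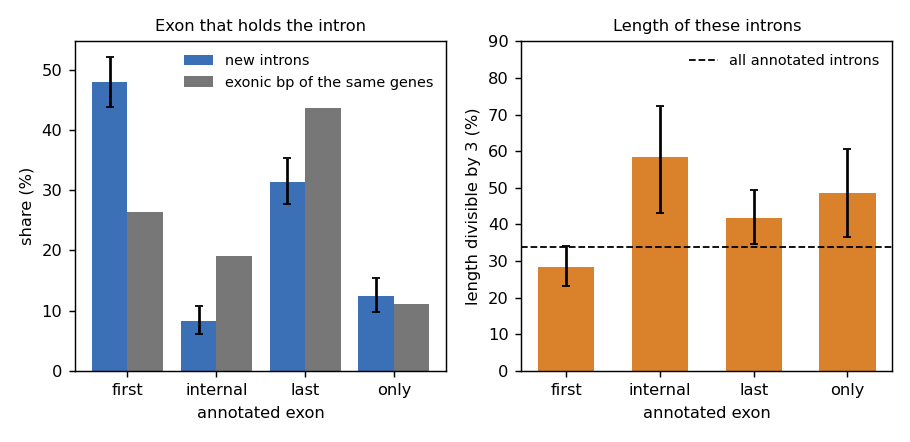
Left, share of the 580 new introns inside an exon that lay in the first, an internal, the last or the only annotated exon (blue, with exact 95% intervals), beside the share of the same genes' exonic sequence (grey). Right, share of these introns with a length divisible by 3 in each exon class (orange, with exact 95% intervals), with the share among all annotated introns as a dashed line (33.7%). First exons held 47.9% of the introns and 26.4% of the sequence.

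Genes with more annotated introns more often had a member. The share of genes with a member was 3.15% (2.38 to 4.08) for genes without an annotated intron, 7.77% for 1 intron, 11.1% for 2, 13.2% for 3, 17.2% for 4, 17.8% for 5 and 19.2% (15.0 to 24.1) for 6 or more. Gene length moved with both. Genes with a member spanned a median of 2819 bp and the others 2057 bp, and the median span rose from 1718 bp without an intron to 3420 bp with 6 or more. Among genes of 2 to 3 kb the share was 5.19% (3.32 to 7.69) without an intron, 10.9% with 1, 10.7% with 2, 13.6% with 3 and 14.8% (11.6 to 18.6) with 4 or more.

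Genes with at least 2 annotated transcripts had a member in 23.2% (20.4 to 26.1), against 8.38% (7.81 to 8.98) of genes with 1. By chromosome the share ran from 8.28% (6.93 to 9.80) on chromosome IV to 10.6% (8.79 to 12.6) on chromosome II, and these intervals overlap. An isoform that kept an annotated intron inside an exon was also found for 245 of the 948 genes with a member (25.8%), which is 17.2% of the 1423 genes with such an isoform. A member was found in 26.7% of the 3546 genes with any unannotated isoform.

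Of the 948 genes, 735 had a single member, 150 a pair, 31 had 3 and 18 had 4, 11 had 5, 1 had 6 and a pair of genes had 8. The genes with most members were NCU06258 and NCU08998, with 8 each, both on chromosome III. In NCU06258 (2096832 to 2099592, minus strand) the members had 7 distinct new introns, of which 6 used a site of the gene's first annotated introns. New acceptors lay 25 and 40 bp beyond, or 42 and 50 bp before, the annotated one, and new donors shifted by 53 and 791 bp. The other was a 116-bp intron inside the last exon. In NCU08998 (4173688 to 4176272, minus strand) all 6 new introns lay in the stretch from 4175533 to 4175837, and 1 of them joined annotated sites over a whole exon.

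NCU03078 on chromosome I (4469902 to 4471900) had 6 members with 4 new introns, and the 75-bp intron with an acceptor 176 bp before the annotated one was in all 6. The other introns were of 240 and 244 bp in the first exon, with donors 4 bp apart and the same acceptor, and of 229 bp with a donor 90 bp upstream of the annotated one. Of the 11 genes with 5 members, the first by position were NCU10647 and NCU02148, both on chromosome I. In NCU02148 the last exon held introns of 280, 174 and 132 bp that ended at the same acceptor.

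**Figure D5:**
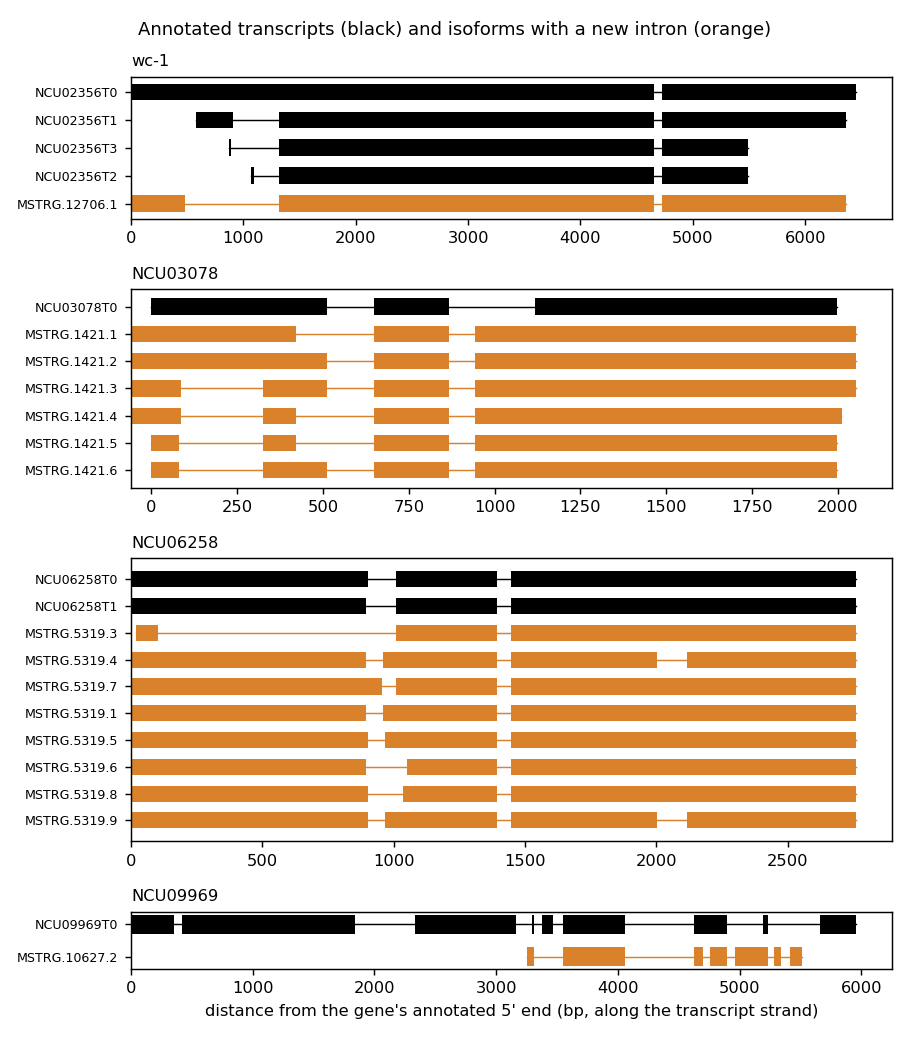
Exons (boxes) and introns (lines) of annotated transcripts (black) and of the isoforms with new introns (orange) for wc-1, NCU03078, NCU06258 and NCU09969, drawn to scale as distance in bp from the gene's annotated 5′ end along the transcript strand. The single wc-1 isoform has a longer first intron, all 6 NCU03078 isoforms share a shortened last intron, and the NCU09969 isoform with 5 new introns covers only the gene's 3′ part.

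Genes of the light response and clock were examined as a list. Light acts in Neurospora through the White Collar complex, a photoreceptor and transcription factor, and the clock turns on the phosphorylation and degradation of FRQ. Members were found for 5 of the 20 genes of the list, namely wc-1, fwd-1, ck-1a, adv-1 and sub-1, against 9.74% of all genes. The list is small, and no test was made of it.

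In wc-1, which encodes the blue-light photoreceptor of the White Collar complex, 1 member (chromosome VII, plus strand, gene span 2767393 to 2773846) had a new donor 408 bp upstream of an annotated one. The intron ran from 2767877 to 2768704, 828 bp in all, and covered the first exons of annotated transcripts that start further downstream. Its second intron was annotated.

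In ck-1a, the casein kinase that phosphorylates FRQ, both members used a donor 31 bp downstream of the annotated site, at 7565642 on chromosome I. It was joined to either of 2 annotated acceptors, 13 bp apart, to give introns of 84 and 97 bp. In fwd-1, the F-box protein that takes FRQ to degradation, both members had an acceptor before the annotated one, by 5 and 11 bp, in the same intron. In sub-1, a light-responsive GATA transcription factor, the new acceptor was 3 bp before the annotated one (intron 3060834 to 3060892 on chromosome V). In adv-1, a transcription factor of the light response, a 66-bp intron was found in the first exon, 140 nt from the 5′ end.

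In the list for H3K9 and DNA methylation, 2 of 12 genes had a member, against 9.74% of all genes. They were dim-7, whose product brings DIM-5 to its targets, and hda-1, a histone deacetylase. The dim-7 member used an acceptor 6 bp before the annotated one, in an intron of 71 bp (5012601 to 5012671 on chromosome V). In hda-1 the same annotated intron, 3191694 to 3192463 on chromosome II, had a donor shifted by 4 bp in 1 member and an acceptor shifted by 36 bp in the other, and both shifts shortened it.

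In a list of 9 of the loci that the study discussed, 2 had a member, NCU09969 and NCU03747, against 9.74% of all genes. The NCU09969 member carried 5 new introns, the most of any, and 1 annotated one. It spanned 317365 to 319623 of a gene that spans 314113 to 320071 on chromosome VI. Its exonic length was 1198 nt, against 3831 nt for the annotated transcript. The 5 introns were of 240 bp over a whole exon, 58 bp inside an exon, 69 and 54 bp with acceptors 225 and 374 bp before the annotated ones, and 73 bp with both sites new. NCU03747, annotated as a single exon, had a 192-bp intron from 2285758 to 2285949 on chromosome V.

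Among genes of the vacuolar ATPase, the proton pump of the vacuole, 2 of 13 had a member, against 9.74% of all genes. These were a 113-bp intron with both sites new in vma-4 and a 59-bp intron in the first exon of vma-16. No member was found for the 5 genes of carotenoid synthesis, 6 of conidiation, 8 of RNA interference or 9 listed histone and housekeeping genes. None was found either for the 7 cytosolic ribosomal proteins matched by RefSeq symbol or 29 subunits of mitochondrial complex I. The share with a member over all genes was 9.74%, and these small lists were not tested. A list of other histone methylation genes had 7 names, of which only set-1, set-2 and set-7 matched a RefSeq symbol, and none of these 3 had a member. Outside the lists and named after the values were seen, set-3 and set-6 had a member each, with acceptors shifted by 196 and 84 bp. So did hH4v, a histone gene by its symbol, with an acceptor shifted by 191 bp. The lists together held 121 different genes, of which 11 had a member, against 9.74% of all genes.

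Genes with a RefSeq symbol numbered 155 among the 948 (16.4%) and 1118 among all 9730 genes (11.5%). Among the 155, those with most new introns were bni1, aab-1, stk-44, pex31 and ff-7. In bni1, a formin that nucleates actin filaments, 5 members carried 5 new introns, and 4 of these overlapped the first annotated intron (4769499 to 4769916 on chromosome V). New donors lay 125 and 247 bp downstream of the annotated one, and a new acceptor 3 bp beyond the annotated one was used with the annotated donor and with the later new donor. In aab-1, a subunit of a CCAAT-binding factor, 4 acceptors were joined to the donor at 2666504 on chromosome III, and they lay 5, 27, 129 and 183 bp before the nearest annotated acceptor.

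In pex31, named as a peroxin, the first and the last exon each held a pair of new introns with a shared acceptor. Those of the first exon were of 191 and 115 bp, and those of the last of 361 and 328 bp. In stk-44, named as a serine/threonine kinase, a single member carried 4 new introns, of which 3 had both sites new over an annotated intron. In ff-7, donors 889 and 890 bp downstream of the annotated one differed from each other by 1 bp.

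The 3-bp acceptor shift was found in 13 introns of genes with a symbol, and the first 10 by position are named. The new acceptor lengthened the intron in crf6-1, cr-1 (adenylate cyclase), tom20 (a receptor of mitochondrial protein import), fsd-1, cox-6 (a cytochrome c oxidase subunit), bni1 and prk-1. It shortened the intron in bd (the Ras protein gene in which the band mutation lies), mek-2 (a MAP kinase kinase) and sub-1.

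Introns that covered a whole annotated exon numbered 47 (3.59%, 2.65 to 4.75), and none covered more than 1 exon of a transcript. The first of them by position were in NCU02105, NCU02099, NCU01927 and NCU02610 on chromosome I. In NCU02099 a 536-bp intron joined annotated sites over the middle exon (1295012 to 1295547), and a 243-bp intron from the same donor ended 98 bp beyond the annotated acceptor. In NCU01927 the exon was left out by a 290-bp intron.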

How the data were processed

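Total RNA from mycelia was depleted of ribosomal RNA before sequencing, and the study states that strand was kept. Strands were used as the authors gave them and were not checked here. The authors mapped reads to NC12 with HISAT2 2.1.0, assembled each sample with StringTie 1.3.3b and merged the assemblies with the NC12 annotation. The deposited file holds positions, counted from 1, and a score column. This score is the constant 1000 that StringTie writes in the authors' file, or a dot, and is no expression level. Cuffdiff values were not used here. Incomplete or wrongly joined assemblies and misaligned reads would appear as structures like any other, and low coverage limits which introns are assembled.

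Transcripts with an NCU gene identifier were called annotated. A new intron was set against the gene's annotated introns and exons by its start and end. RefSeq (NC12) listed 9729 of 9730 genes by locus tag and gave the symbols and chromosomes. The planned tests were 2-sided Fisher's exact tests, with each distinct intron or new site counted once, Benjamini-Hochberg adjustment over 2 tests and a threshold of 0.05. Shares have Clopper-Pearson 95% intervals. The test was checked on simulated data. So was the classification of new acceptors, new donors, newly paired annotated sites and introns inside an exon. Simulated shifts only lengthened the intron, in genes with a single annotated transcript, and the other kinds of new intron were not simulated. Python 3.11.15, numpy 2.4.6, scipy 1.17.1 and matplotlib 3.10.9 were used.

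The members and lists were chosen with earlier results of these data known. Named are list genes with a member, the 5 genes with most members (ties by position), the 5 members with most new introns (the last 3 of them in NCU02148 and NCU03078), the 5 longest and 5 shortest introns, the first 5 covering an exon, the 5 longest inside an exon, the 5 genes with a symbol and most new introns, and 10 genes with a symbol and a 3-bp acceptor shift. For the extremes of length, the text gives the leading ones only. A list of splicing factors matched no gene, since no product names were used here. Alternatives were the end allowance, the set of introns compared, isoforms that keep an intron, 1 member per gene, long introns, the share of exonic length and the number of transcripts with the intron. Leaving out introns under 48 bp and counting introns in place of sites were chosen after seeing the data.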

Additional observations from a re-analysis of the deposited data

How the results depend on the processing

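With only introns found in 2 or more unannotated transcripts, the members fell to 247, the genes with a member to 132 and the new introns to 180. That alternative keeps fewer introns by construction. Under it the difference in length divisible by 3 between new and annotated introns turned to -0.957 percentage points (p = 0.813, 2-sided Fisher's exact test), and the difference between acceptor and donor shifts was 0.713 points (p = 1). In Fisher's exact test the difference between acceptor and donor shifts passed the threshold with an end allowance of 50 bp (9.89 points, adjusted p = 0.0430) and with isoforms that keep an annotated intron inside an exon (8.52 points, adjusted p = 0.0476). The cause was not tested. Over its 11 alternatives the adjusted p ran from 0.0430 to 1, and it was 0.0974 (8.31 points) when introns were counted in place of sites. The shares inside an exon, of acceptors and of lengths divisible by 3 stayed within their 95% intervals under every alternative run.

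The alternative with only GT-AG introns, and the test of GT-AG ends, were not run, since no genome sequence was used here. No paired analysis was possible because the single file pools all libraries, and for the same reason no replicate was left out. The depth behind each intron is unknown.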

Other observations

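Families of genes that share the letters of a RefSeq symbol differed in how many of their genes had a member. There were 15 families with at least 10 genes, they were looked at after the data were seen, and no test was made. Of the pex genes, which are named for peroxisome biogenesis, 7 of 20 had a new intron (pex6, pex11, pex13, pex24, pex26, pex31 and pex33). The share was 3 of 11 for the acw genes, 3 of 12 for the crf genes, named as chromatin remodelling factors, 3 of 16 for the tca genes, 9 of 53 for the stk genes, named as serine/threonine kinases, and 2 of 13 for the vma genes. It was 1 of 10 for the hsp genes, 1 of 11 each for the arg and mig genes and 1 of 12 for the rpn genes. The lowest were the nuo genes of complex I (0 of 29), the tim genes of mitochondrial import (0 of 11), the cys genes (0 of 10), the gh glycoside hydrolases (3 of 79) and the mus genes (1 of 21). Over all genes the share was 9.74%. The families were drawn from the 1118 genes with a RefSeq symbol, of which 155 had a member. They were not matched for gene length or number of annotated introns.

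Single genes with a symbol are given as further examples, chosen with the values in view. In gna-1, which encodes a G protein alpha subunit, the acceptor moved by 1 bp, in pkac-2, a catalytic subunit of protein kinase A, by 7 bp, and in mak-2, a MAP kinase, by 5 bp. In pkac-1 a donor moved by 267 bp. In sod-2, a superoxide dismutase, an intron of 65 bp lay inside the first exon. Introns of 81 and 97 bp with a shared donor lay inside the last exon of sod-2.

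Among transcripts outside the members, the same positions were an intron on the opposite strand for 5 of the 1309 new introns (0.382%, 0.124 to 0.889). These were in NCU03148, NCU00798, stk-20 and NCU06110. For stk-20 (8810515 to 8810602 on chromosome I) the opposite transcript was the annotated NCU02884T0. For NCU00798 (7131407 to 7131475) the opposite transcripts were the annotated NCU00799T0 and the unannotated MSTRG.2382.2.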
